A study of Mus musculus with 14 samples.

Results

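The TREM and Siglec receptors were followed as 10 genes, found by symbol among the 49315 genes of the count table. They comprised the TREM receptors Trem1, Trem2 and Treml2, their adaptor Tyrobp, and the Siglecs Siglech, Siglece, Siglec1, Siglecg, Cd33 and Cd22. All 10 were matched, and 9 of them, all but Siglecg, carried enough reads to be tested among 15700 genes. Poly(A) RNA had been sequenced from primary microglia of the C57BL/6 strain, in 7 TIMP2 KO and 7 WT libraries. TIMP2 is a secreted inhibitor of metalloproteinases, and the KO line carries a global deletion rather than a deletion in microglia alone. The microglia came from forebrain at postnatal days 6 to 7 through CD11b selection and were plated before collection, so the libraries describe cultured neonatal cells. Each library pooled 5 pups of both sexes, and animal-to-animal spread within a pool was therefore not seen. The comparison asks whether loss of TIMP2 was accompanied by other transcript levels of these receptors.

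TREM receptors and Siglecs are surface receptors through which microglia read lipids, lipoproteins and the sialic acid coat of neighbouring cells. TREM2 and TREM1 have short tails without a signalling motif and pair, through a basic residue in the membrane, with an acidic residue of the adaptor TYROBP (DAP12). TYROBP carries an ITAM, a pair of tyrosines that recruit the kinase SYK once phosphorylated. Most Siglecs bind sialic acid and carry ITIMs, tyrosine motifs that recruit the phosphatases SHP-1 and SHP-2 and dampen such signals. In brain, TREM2 and CD33 are best known as genes in which variation alters the risk of Alzheimer's disease.

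The coding sequences of the annotated mouse transcripts show this division, and the membrane stretches are printed because pairing with the adaptor runs through them. Each stretch is the most hydrophobic window of 19 codons downstream of codon 40, in GRCm38, written 5′ to 3′ on the coding strand, with codons for charged residues in capitals.
Trem1, chr17:48244568-48244624, plus strand: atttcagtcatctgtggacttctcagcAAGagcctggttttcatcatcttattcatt
Trem2, chr17:48351777-48351833, plus strand: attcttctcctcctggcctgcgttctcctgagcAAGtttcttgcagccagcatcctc
Cd33, chr7:43529920-43530255, minus strand, across an intron: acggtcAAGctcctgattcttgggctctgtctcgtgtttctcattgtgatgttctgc
Siglech, chr7:55771635-55771691, plus strand: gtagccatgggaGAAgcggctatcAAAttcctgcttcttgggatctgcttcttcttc
Tyrobp, chr7:30414545-30414601, plus strand: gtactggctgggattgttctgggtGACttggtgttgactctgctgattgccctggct

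Trem1, Trem2, Cd33 and Siglech each held 1 lysine codon in this window, and Siglech a glutamate codon as well. Tyrobp held the acidic counterpart, 1 aspartate codon. The windows of Treml2, Siglece, Siglec1, Siglecg and Cd22 held no charged codon. The tails after the window separated the members again, and the tyrosine motifs found there are shown with the tyrosine codons in capitals. An ITAM was read as the codons of Y-x-x-L or Y-x-x-I repeated after 6 to 8 residues, and an ITIM as I, L or V, any residue, Y, any 2 residues, then L or V.
Tyrobp ITAM, chr7:30415670-30417382, plus strand, across an intron: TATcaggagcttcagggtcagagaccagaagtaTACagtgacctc
Siglece ITIM, chr7:43651585-43651602, minus strand: atacatTATgcgaccctc
Siglecg first ITIM, chr7:43412688-43412705, plus strand: ctggacTACatcaatgtg
Siglecg last ITIM, chr7:43417979-43417996, plus strand: ctccacTATgctgctctc
Cd22 first ITIM, chr7:30867494-30867511, minus strand: gttagtTATgccatcttg
Cd22 middle ITIM, chr7:30866600-30866617, minus strand: atccatTACtcagagctg
Cd22 last ITIM, chr7:30866540-30866557, minus strand: gtagacTATgtgaccctc

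Tyrobp was the only member with an ITAM under this pattern. The pattern found 3 ITIMs in Cd22, 2 in Siglecg and 1 in Siglece, and 0 in the mouse Cd33 tail, which held 1 tyrosine. The members thus fell into the adaptor, receptors with a basic codon in the membrane, receptors with ITIMs, and Treml2 and Siglec1 with neither.

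The 14 libraries held 38875344 to 48070236 counted reads each, and no 2 libraries were identical. Timp2 was 122.5 ± 3.14 in KO (SD, n = 7) and 463.7 ± 36.8 in WT (n = 7), in CPM (counts scaled to a library of 1000000 reads with TMM factors), which follows the labels, and reads from parts of the gene outside a deletion would still be counted. Of 14 microglia markers, all passed the filter on low counts, among them Csf1r at 2677 and Fcrls at 1056.3 CPM, whereas Tmem119 averaged 4.54 CPM. Border macrophage markers were also present, with Stab1 at 3234.6 and Mrc1 at 437.9 CPM, while Lyve1 averaged 0.0421 CPM. The summed CPM of the 12 astrocyte markers ranged from 32.1 to 153.8 in KO and from 36.7 to 288.2 in WT, and all 11 tested astrocyte markers were estimated lower in KO without passing the test, as were 8 of 9 tested oligodendrocyte lineage markers and 9 of 11 neuron markers. No marker of any of the 10 lists was called.

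The adaptor and TREM2 dominated the family. Compared per length, as CPM per kilobase of annotated exon (RPKM), Tyrobp was highest at 1111.4 ± 50.1 (SD over 14 libraries), followed by Trem2 at 201.7 ± 10.7. Siglec1, known as sialoadhesin and as a macrophage marker, followed at 40.7 ± 7.93, and Cd22 and Cd33 at 8.27 ± 0.653 and 7.3 ± 1.21. Siglech, Siglece and Treml2 lay close together at 1.26 ± 0.314, 1.14 ± 0.484 and 0.933 ± 0.406. Trem1, a receptor best known from neutrophils and monocytes, and Siglecg, a Siglec of B cells, closed the order at 0.0909 ± 0.0487 and 0.0155 ± 0.0131.

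The order was set by the means of these same 14 libraries, so the tests of it describe steadiness between libraries only. Of the 9 pairs of neighbours in this order, 8 differed by an exact two-sided sign-flip test over the 14 libraries of log2(RPKM + 0.01). For 6 of them the higher gene was higher in all 14 libraries (exact p = 0.000122, the smallest the test allows; adjusted p = 0.000183). By annotated exon length, Siglech and Siglece could not be separated, with a mean log2 ratio of 0.18 ± 0.51 and Siglech higher in 10 of 14 libraries (exact p = 0.19). Siglece exceeded Treml2 by 0.31 ± 0.28 on the log2 scale (adjusted p = 0.00141, exact test) and Cd22 exceeded Cd33 by 0.19 ± 0.25 (adjusted p = 0.0166, exact test). The last 2 calls depended on the gene length used. With the longest protein-coding transcript as the length, an alternative chosen after the annotation had been seen, neither Cd22 and Cd33 (adjusted p = 0.193, exact test) nor Treml2 and Siglece (adjusted p = 0.866, exact test) passed. On that length Siglech was at 1.85 ± 0.462 and Siglece at 1.14 ± 0.484 RPKM, no longer neighbours and not tested against each other. Siglech exceeded Treml2, its neighbour there, by 0.75 ± 0.64 on the log2 scale (adjusted p = 0.00204, exact test). That length also raised Trem2 to 917 RPKM, because the exons annotated for Trem2 span 4946 bases, and its longest coding transcript 1088. Tyrobp remained higher than Trem2 in 14 of 14 libraries, by 0.44 ± 0.04 in place of 2.46 ± 0.04 on the log2 scale.

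**Figure D1:**
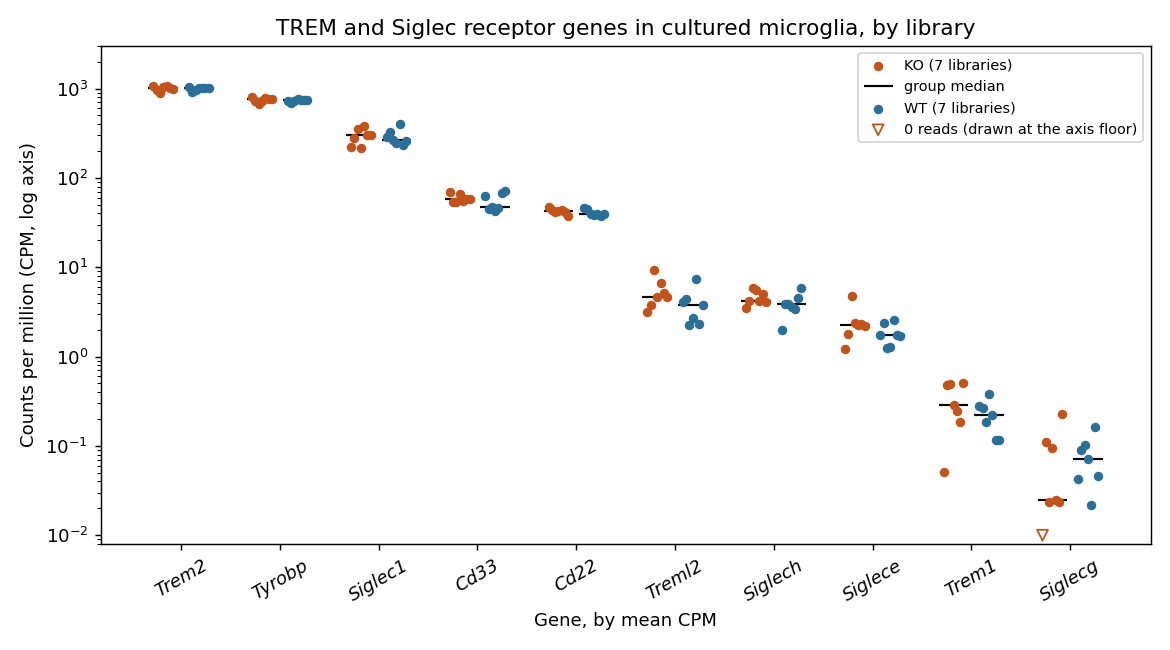
Each point is a library, with KO in orange and WT in blue, black lines mark group medians, and the vertical axis is CPM on a log scale. The 10 genes span from 1005.6 CPM on average for Trem2 in KO to at most 9 reads per library for Siglecg, and the KO and WT points overlap for every gene.

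No receptor gene passed the test between genotypes. Of the 9 tested members 0 passed an adjusted p of 0.05 in edgeR, where 0.0191% of all tested genes did, and 0 had an unadjusted p under 0.05, where 3.37% of all tested genes did. DESeq2 gave the same counts, 0 of 9 at either threshold, against 0.0892% of all genes called by it at the adjusted threshold. Its share of all genes with an unadjusted p under 0.05 is not given here. All 9 estimates were above 0, that is higher in KO, where 50.8% of all tested genes were. The median log2 fold change of the members was 0.119 and that of all tested genes was 0.00164. Of the 36 pairs of tested members, 4 were correlated between libraries, 3 positively and 1 negatively. The 9 directions are therefore not all independent. KO and WT overlapped for all 10 genes, and the share of all tested genes that overlapped is not given here.

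Trem2, the lipid and lipoprotein receptor, ranged from 886.2 through a median of 1008.3 to 1075.5 CPM in KO and from 905.9 through 1005.4 to 1031.8 CPM in WT. The lowest and the highest library were both KO, and the KO libraries enclosed the WT range. The fold was 1.02, with a 95% interval of 0.954 to 1.08 (edgeR p = 0.601, adjusted p = 0.963; exact permutation p = 0.625).

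Tyrobp, through which TREM2 signals, ranged from 673.9 through 754.8 to 798.7 CPM in KO and from 693.8 through 735.2 to 768.1 CPM in WT. Again the KO libraries enclosed the WT range. Its fold was 1.02 with an interval of 0.967 to 1.08 (edgeR adjusted p = 0.945; exact permutation p = 0.463). For this pair the coefficient of variation was 3.2% to 6.37% within a genotype, and changes above 1.08-fold lay outside the intervals.

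Treml2, a TREM family member without a charged membrane codon, ranged from 3.16 through 4.7 to 9.28 CPM in KO and from 2.23 through 3.74 to 7.29 CPM in WT. KO replicate 3 and WT replicate 5 were the highest of their groups, and only KO replicate 3 exceeded all WT libraries. The fold was 1.4, with an interval of 0.924 to 2.12 (edgeR p = 0.105, adjusted p = 0.943; exact permutation p = 0.111). The log2 estimate of 0.48 was 0.29 without KO replicate 3 and 0.72 without WT replicate 5, where the unadjusted p fell under 0.05 and the adjusted p of edgeR was 0.684. With the astrocyte marker level in the model the log2 estimate was 0.25 in place of 0.48, and no member was called.

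Trem1 was counted with 2 to 22 reads per library. It ranged from 0.051 through 0.285 to 0.505 CPM in KO and from 0.115 through 0.22 to 0.383 CPM in WT, so that KO held the lowest value and the 3 highest. The fold of 1.44 had an interval of 0.807 to 2.58 (edgeR adjusted p = 0.943; exact permutation p = 0.455). The log2 estimate was 0.53, and it was 0.71 without KO replicate 1, the library with 2 reads, where the unadjusted p fell under 0.05 and the adjusted p of edgeR was 0.712. Neutrophil markers were low as well, with S100a9 at 2.53, Mmp8 at 1.8 and Ly6g at 0.00975 CPM. The summed CPM of the 11 neutrophil markers ranged from 3.64 to 27.3 in KO and from 1.1 to 17.5 in WT, and all 6 tested were estimated higher in KO without being called. Monocyte markers summed to 78.9 to 203.7 CPM in KO and 77.4 to 156.8 in WT, mostly from Fn1. Neither list was correlated with Trem1 past the threshold, with neutrophil markers giving r = 0.31 (permutation p = 0.286, adjusted p = 0.628) and rho = 0.39 (permutation p = 0.179, adjusted p = 0.473). Monocyte markers gave r = 0.35 (permutation p = 0.263, adjusted p = 0.622) and rho = 0.39 (permutation p = 0.185, adjusted p = 0.475). These levels were means over the 6 tested neutrophil and the 4 tested monocyte markers. Within KO and within WT r was 0.62 and -0.11 for neutrophil markers, and 0.52 and 0.04 for monocyte markers. With so few Trem1 reads, the missing calls say little.

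Among the Siglecs with a basic membrane codon, Cd33 ranged from 53.6 through 58.3 to 69 CPM in KO and from 42.8 through 47.8 to 70.7 CPM in WT. The WT libraries fell into a lower set of 4 and a higher set of 3, and the KO libraries lay within the WT range. The fold was 1.09, with an interval of 0.912 to 1.29 (edgeR adjusted p = 0.943; exact permutation p = 0.286). Siglech, a Siglec of microglia and plasmacytoid dendritic cells, ranged from 3.5 through 4.23 to 5.83 CPM in KO and from 1.99 through 3.87 to 5.86 CPM in WT. WT replicate 1 was the lowest library, and the fold was 1.2 with an interval of 0.91 to 1.58 (edgeR adjusted p = 0.943; exact permutation p = 0.17). The log2 estimate of 0.26 was 0.15 without WT replicate 1 and 0.39 without WT replicate 7, where the unadjusted p fell under 0.05 and the adjusted p of edgeR was 0.913. Of the 10 plasmacytoid dendritic cell markers 6 passed the filter, led by Tcf4 at 176.2 CPM, a gene other cells also express, Pacsin1 at 5.88 and Cox6a2 at 2.47 CPM, while Ly6d averaged 0.0146 and Klk1 0.0048 CPM. Their summed CPM ranged from 164.3 to 209.8 in KO and from 166.4 to 199.1 in WT, and their mean level gave r = 0.08 with Siglech (permutation p = 0.828, adjusted p = 0.956; rho = 0.01, permutation p = 0.989, adjusted p = 0.989).

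Of the Siglecs with ITIMs, Cd22 ranged from 37.3 through 42.8 to 47.7 CPM in KO and from 37.4 through 39.5 to 45.8 CPM in WT. The groups covered nearly the same range, and the fold was 1.05 with an interval of 0.963 to 1.14 (edgeR adjusted p = 0.943; exact permutation p = 0.286). CD22 is otherwise known as a Siglec of B cells, and the B cell gene Ms4a1 averaged 0.105 CPM here, although Ighm and Cd79b averaged 10.2 and 6.77 CPM. The 10 B cell markers summed to 16.7 to 31.6 CPM in KO and 14.4 to 22.3 in WT, and 3 of them were tested. No correlation of Cd22 with the mean level of those 3 passed (r = -0.13, permutation p = 0.669, adjusted over 90 relations with marker lists 0.927; rho = -0.09, permutation p = 0.769, adjusted p = 0.9). The antisense gene Gm29439 shares 479 bases of exon with Cd22 and averaged 5.4 reads per library, and the strand setting of the counting was not given in the sources used here.

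Siglece, the main ITIM Siglec of mouse myeloid cells, ranged from 1.23 through 2.27 to 4.79 CPM in KO and from 1.26 through 1.72 to 2.59 CPM in WT. KO replicate 3 stood above every other library, and the other KO libraries lay between 1.23 and 2.37 CPM. The fold was 1.34 with an interval of 0.918 to 1.96 (edgeR adjusted p = 0.943; exact permutation p = 0.218). Without KO replicate 3 the log2 estimate was the lowest of the left-out series, at 0.17 in place of 0.42, and without KO replicate 1 it was 0.53, with an unadjusted p under 0.05 and an edgeR adjusted p of 0.712. Siglecg was counted with 0 to 9 reads and 45 reads in all libraries together, 21 in KO and 24 in WT, and was not tested. In its 1 library at 0, a count of 0 allows up to 3 reads, or 0.0772 CPM at the lowest depth.

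Siglec1 ranged from 216.5 through 298.2 to 380.8 CPM in KO and from 236 through 263.1 to 400.6 CPM in WT. The highest library was WT replicate 5, the lowest KO replicate 4, and the fold was 1.02 with an interval of 0.827 to 1.25 (edgeR adjusted p = 0.988; exact permutation p = 0.912). Its coefficient of variation was 20.6% in KO and 19.9% in WT, wider than for Trem2 at 6.37% and 4.37%.

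**Figure D2:**
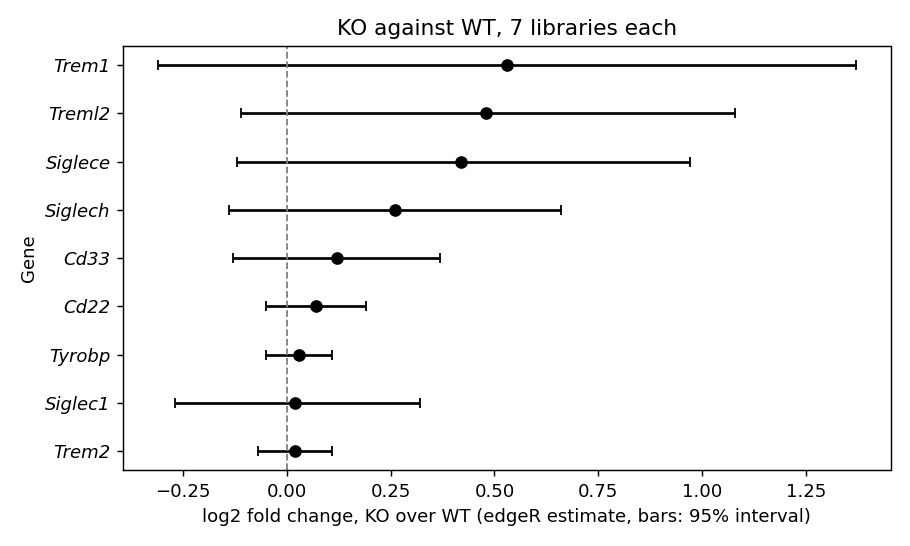
Points are edgeR log2 fold changes of KO over WT for the 9 tested genes, with 7 libraries per genotype, and bars are 95% intervals. All 9 intervals cover 0, the narrowest those of Trem2 and Tyrobp and the widest that of Trem1, from -0.31 to 1.37.

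Beyond genotype, some members varied together from culture to culture. Log2 CPM were centred within genotype and correlated over the 14 libraries for all 36 pairs of tested members, with p-values from 100000 permutations within genotype and adjusted over the 36 pairs. By Pearson's r 4 pairs passed, 3 positive and 1 negative, and by Spearman's rho 2 passed. The libraries share depth and culture makeup, so a correlation does not show that the genes are linked within a cell.

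Trem2 and its adaptor Tyrobp varied together, with r = 0.88 (permutation p = 0.00047, adjusted p = 0.00576) and rho = 0.67 (permutation p = 0.0199, adjusted p = 0.196). In KO replicate 3, both were at their lowest, at 886.2 and 673.9 CPM. Within KO r was 0.91 and within WT 0.79, and leaving out the 2 libraries farthest from the Trem2 median gave 0.65. Without KO replicate 3 the correlation was 0.76 and missed the threshold (permutation test, adjusted p = 0.0617), so the call rests on that library. Among 12641 genes of at least 1 CPM, Tyrobp was rank 12 in likeness to Trem2, and Trem2 rank 23 in likeness to Tyrobp.

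Treml2 varied with Siglece and with Siglec1. For Treml2 and Siglece r was 0.86 (permutation p = 7e-05, adjusted p = 0.00252) and rho 0.82 (permutation p = 0.001, adjusted p = 0.018), with r = 0.93 within KO and 0.85 within WT. Leaving out the 2 libraries farthest from the Treml2 median gave 0.76. For Treml2 and Siglec1 r was 0.83 (permutation p = 0.00048, adjusted p = 0.00576) and rho 0.82 (permutation p = 0.00093, adjusted p = 0.018), with 0.77 within KO and 0.91 within WT, and 0.72 without the 2 farthest libraries. Without WT replicate 5 that correlation was 0.76 (permutation test, adjusted p = 0.0685) and missed the threshold. Siglece and Siglec1 gave r = 0.66 and rho = 0.62 and did not pass (permutation p = 0.0145 and 0.027, adjusted p = 0.0932 and 0.196). The negative pair was Trem1 and Cd33 (r = -0.6, permutation p = 0.00544, adjusted p = 0.049; rho = -0.56, permutation p = 0.0272, adjusted p = 0.196), whose call was lost in 12 of 18 alternatives and rests on few Trem1 reads.

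**Figure D3:**
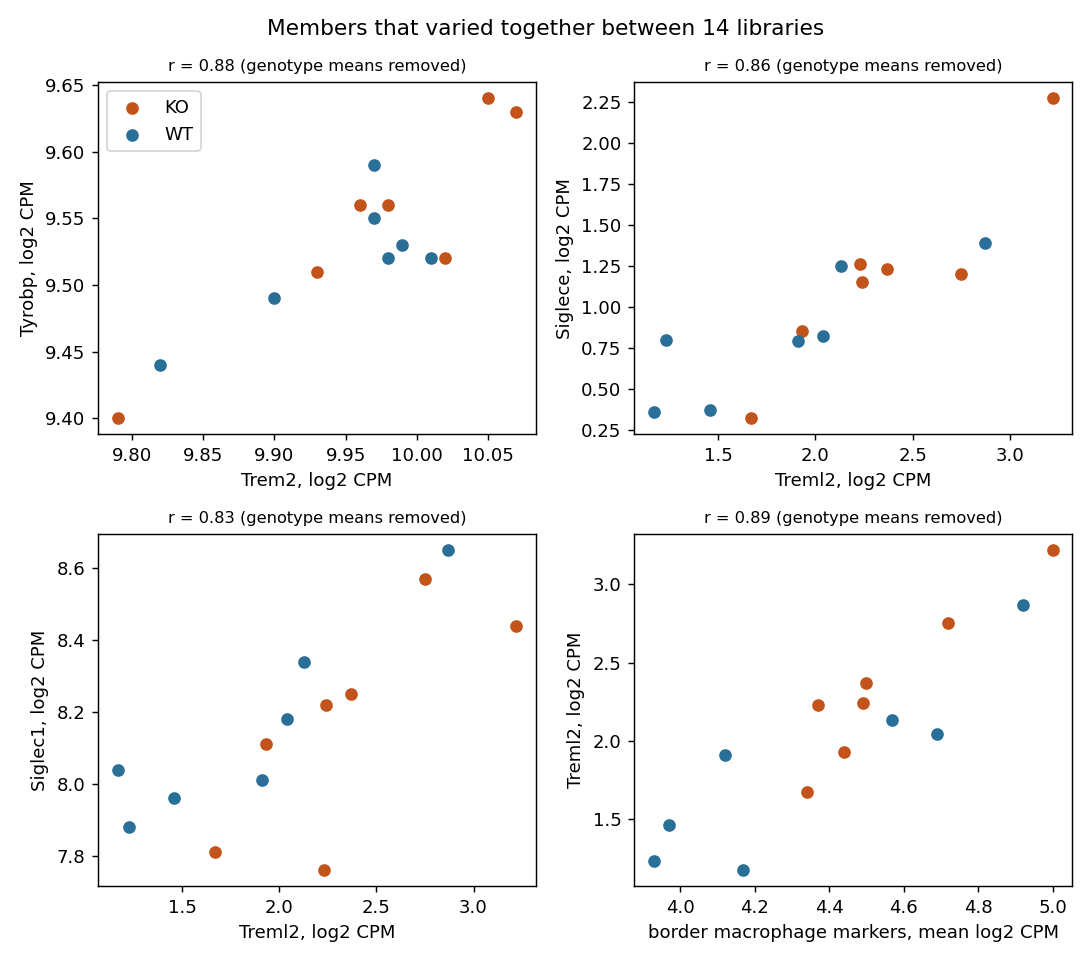
Each panel plots log2 CPM of 14 libraries, KO in orange and WT in blue, for Trem2 with Tyrobp, Treml2 with Siglece, Treml2 with Siglec1, and the mean level of border macrophage markers with Treml2. Pearson's r, with genotype means removed, was 0.88, 0.86, 0.83 and 0.89.

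The libraries high in Treml2, Siglece and Siglec1 were also high in border macrophage markers, genes of the macrophages that line the meninges and vessels. The mean log2 CPM of the 10 tested markers was highest in KO replicate 3, at 5, and in WT replicate 5, at 4.92, which were also the highest Treml2 libraries of their groups. Over 90 relations of members with marker lists, computed after some members had been seen to vary together, 5 passed by Pearson's r and 1 by Spearman's rho. Siglec1 with the border macrophage list gave r = 0.84 (permutation p = 6e-05, adjusted p = 0.0036) and rho = 0.87 (permutation p = 3e-05, adjusted p = 0.0027). Treml2 with that list gave r = 0.89 (permutation p = 8e-05, adjusted p = 0.0036) and rho = 0.79 (permutation p = 0.00179, adjusted p = 0.0805). Without the 2 libraries farthest from the marker median r was 0.73 and 0.76, and leaving out any 1 library kept both past the threshold by Pearson's r.

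Siglece with the border macrophage list (r = 0.73, permutation p = 0.00178, adjusted p = 0.04; rho = 0.7, permutation p = 0.00639, adjusted p = 0.121) lost its call without any of KO replicates 1, 2, 3, 5 and 6 or WT replicates 4, 5 and 7. Treml2 with astrocyte markers was negative (r = -0.78, permutation p = 0.00231, adjusted p = 0.0416; rho = -0.71, permutation p = 0.00887, adjusted p = 0.121) and lost its call without any of KO replicates 1, 2, 5 and 6 or WT replicates 1 and 3 to 7. Cd22 was negatively related to the microglia marker level (r = -0.77, permutation p = 0.0012, adjusted p = 0.036; rho = -0.7, permutation p = 0.00936, adjusted p = 0.121), a call lost without any of KO replicates 1 and 6 or WT replicates 1, 3 and 6. Without KO replicate 4, 10 of the 90 relations passed. In bulk RNA, more cells of a type and more RNA per cell cannot be told apart, and the part of culture makeup in these relations was not tested.

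**Figure D4:**
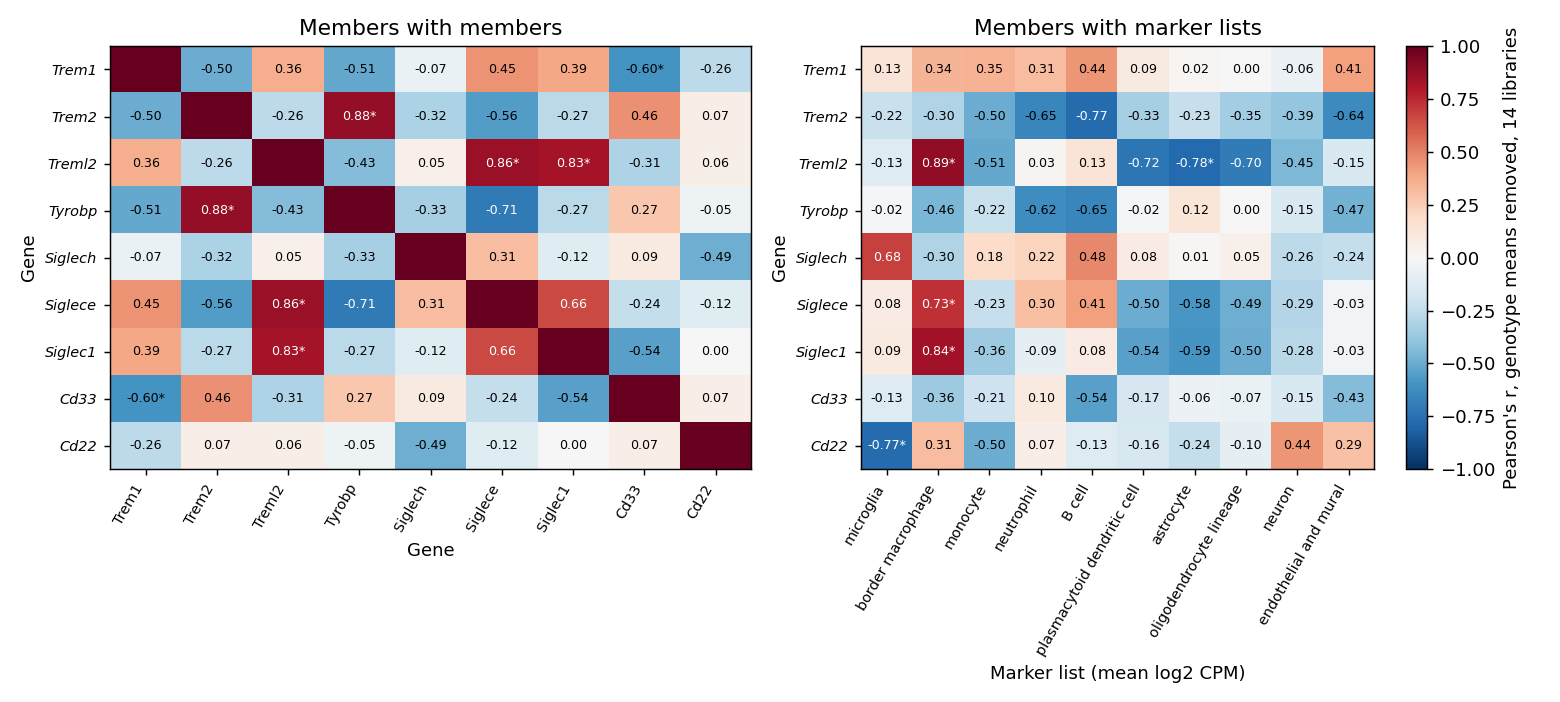
Colours and numbers are Pearson's r over 14 libraries after removal of genotype means, among the 9 tested members on the left and between members and 10 cell type marker lists on the right, with asterisks for an adjusted p under 0.05. The strongest cells are Treml2 with border macrophage markers at 0.89 and Trem2 with Tyrobp at 0.88.

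The genes most like each member over the same libraries were read as a description. Trem2 was most like Asb8, Mrps33 and Sfxn1 (r of 0.92 to 0.93) and Tyrobp most like Tubb2a, Aldh2 and Gnptab (0.93 to 0.95). Treml2 was closest to Cmpk1, Clec2d and Gbp2 (0.95 to 0.97), Siglec1 to Tmem8, Ncoa7 and Fcgrt (0.95 each) and Siglece to Rapgef2, 2410006H16Rik and Rbpj (0.95 to 0.96). Gbp2 is an interferon-induced GTPase, and Fcgrt encodes the neonatal Fc receptor. Cd22 lay nearest the myeloid surface genes Cd93, Cd48 and Ptafr (0.9 to 0.92), and Cd33 nearest C330007P06Rik, Bzw1 and Wdr77 (0.88 to 0.91). Siglech followed Mtmr6, 6820431F20Rik and Tbc1d23 (0.83 to 0.88), and Trem1 followed Fgr, a Src family kinase of myeloid cells, Senp3 and Ndnf (0.84 to 0.9). The search covered 12641 genes, and no test was attached to these likenesses.

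No gene around the receptors passed the test either. Of 119 listed genes in 7 lists, 96 were tested, 0 passed the adjusted threshold, which 0.0191% of all tested genes did, and 6 (6.25%) had an unadjusted p under 0.05, against 3.37% of all tested genes. Among them 62 (64.6%) were estimated higher in KO and 34 lower, against 50.8% higher of all tested genes, and their median log2 fold change was 0.0317, against 0.00164 over all tested genes. The smallest adjusted p was 0.943.

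In the signalling chain below TYROBP, 28 of 29 genes were tested, and 22 were estimated higher and 6 lower in KO. Their median log2 fold change was 0.0549. Fyn, a Src family kinase, had the smallest p, with 74.5 CPM in KO and 81.1 in WT (log2 fold change -0.12, edgeR adjusted p = 0.943). Vav3, a guanine nucleotide exchange factor, followed at a log2 fold change of -0.13 and Plcg2, the phospholipase downstream of SYK, at 0.04, each with an edgeR adjusted p of 0.943. Of the 12 ITIM phosphatases and regulators, 6 were estimated higher and 6 lower. Pag1, an adaptor that anchors the kinase CSK, had 102.1 CPM in KO and 90.8 in WT (log2 fold change 0.17, edgeR adjusted p = 0.943). Ptpn11, which encodes SHP-2, and Ptpn6, which encodes SHP-1, gave log2 fold changes of -0.03 and 0.1 at the same adjusted p.

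The list named for other receptors that use TYROBP or the related adaptor HCST was drawn broadly. It also held genes that are not such receptors, among them Hcst itself and Sema6d, and use of these adaptors was not tested. Of its 17 genes, 9 were tested, 5 estimated higher and 4 lower. Sema6d, listed for its plexin complex with TREM2 and TYROBP, was 13.5 CPM in KO and 16.7 in WT (log2 fold change -0.31, edgeR adjusted p = 0.943). Cd300lb and Csf1r, the receptor for the growth factor CSF1, gave log2 fold changes of 0.21 and 0.15 at the same adjusted p. Of the other TREM genes, Treml4 was 0.411 CPM in KO and 0.233 in WT (log2 fold change 0.81, edgeR adjusted p = 0.943) and Treml1 gave -0.01 (edgeR adjusted p = 0.993). Mag and Siglecf, the other tested Siglecs, gave log2 fold changes of 0.07 and 0.21 (edgeR adjusted p = 0.953 and 0.943).

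The ligands and proteases of TREM2 gave 11 genes estimated higher and 8 lower of 19 tested, and none had an unadjusted p under 0.05. Hsp90aa1, a chaperone listed as a TREM2 ligand, gave a log2 fold change of -0.08. Aph1a, a component of gamma-secretase, gave 0.05, and both had an edgeR adjusted p of 0.943. In sialic acid metabolism, 15 of 24 tested genes were estimated higher and 9 lower. Npl, a lyase that degrades sialic acid, gave a log2 fold change of -0.11. Nans, a synthase that makes it, gave -0.07 and St3gal1, a sialyltransferase, 0.07, again with an edgeR adjusted p of 0.943.

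**Figure D5:**
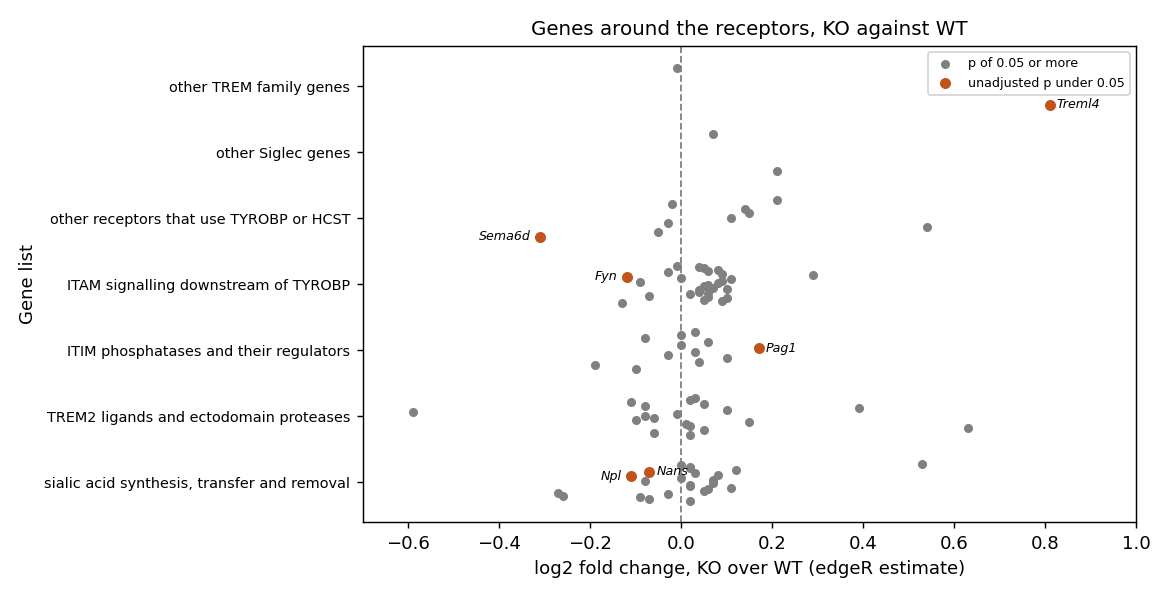
Each point is a tested gene of 7 lists, placed by its edgeR log2 fold change of KO over WT on the horizontal axis, with genes of unadjusted p under 0.05 in orange and named. The 6 named genes are Treml4, Sema6d, Fyn, Pag1, Npl and Nans, and 0 of the 96 genes passed the adjusted threshold.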

How the data were processed

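The deposited values were raw counts per Ensembl gene, as the authors made them before any scaling. Per the submitters' processing notes the tools included Trimmomatic 0.36, STAR 2.5.2b, featureCounts and Subread 1.5.2, with GRCm38. The annotation release, strand setting and each library's batch were not given in the sources used here, so batch was not modelled. The paper's own DESeq2 model held batch as a covariate. Genotype and replicate came from sample titles. Symbols, positions, lengths and transcript sequences came from GENCODE M21 (GRCm38).

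Genes passing filterByExpr (count 10, total 15) entered edgeR 4.0.16 (R 4.3.3) with TMM factors, quasi-likelihood tests and Benjamini-Hochberg adjustment over 15700 genes. DESeq2 1.42.0 was an alternative. The fits were tested on simulated counts with the same dispersion for every gene and no batch or culture makeup. That test does not cover the unequal spread of genes in these libraries. Log2 CPM used a prior count of 1. Exact permutation tests were two-sided over 3432 splits into 7 and 7.

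The text names all members, Timp2, per gene list those past the threshold or up to 3 of smallest p, per marker list up to 3 of highest CPM, and the 3 genes most like each member. Scarce markers (Tmem119, Lyve1, Ly6g, Ly6d, Klk1, Ms4a1) were named after their values were seen, and some genes that the rule names are not reported here. Members and lists were chosen with earlier results of these data known. Replicates are separate pools of pups, and the lowest chi-square per degree of freedom between 2 libraries was 7.03, above sampling noise. Floors cover counting error only.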

Additional observations from a re-analysis of the deposited data

Results flagged for a closer look

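Treml2 in WT replicate 5, at 7.29 CPM, stood apart from the other 6 WT libraries by 0.578 of the group's range, and Siglece in KO replicate 3, at 4.79 CPM, stood apart from the other KO libraries by 0.678 of the range. Both were flagged on the CPM scale and neither on the log2 scale. These were 2 of 38 group checks, and chance flags about 1 in 20. WT replicate 5 also had the highest Siglec1, at 400.6 CPM, and KO replicate 3 the highest Treml2, at 9.28 CPM.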

How the results depend on the processing

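The count of members called, 0, and that of pathway genes called, 0, were the same in all 22 alternative fits, which covered the scaling, the filter, DESeq2, the replicate block, the astrocyte covariate and each library left out. The count over all genes was 3, and was 14 with DESeq2 and 27 with DESeq2 and the replicate block, 3 with edgeR and the replicate block, and 3 to 4 with a library left out. Whether the replicate numbers pair the pools was not given in the sources used here. Same-numbered libraries correlated from -0.2 to 0.74, over 0.1 in 3 of 7 numbers, and 1 of 7 matched its own number best. Such correlations cannot decide the pairing. The block changed no member's call. All members kept their direction except Siglec1, whose log2 fold change was -0.08 with the astrocyte covariate and -0.05 to 0.12 with a library left out. With a library left out, 0 members and 0 pathway genes were called, and 8 of 9 neighbours differed each time (6 to 8 over all alternatives). Correlated pairs numbered 4, and 2 by Spearman's rho, 7 with the astrocyte level regressed out within genotype, and 2 to 5 with a library left out (2 without KO replicate 3 or WT replicate 5). Relations with marker lists numbered 5, 1 by Spearman's rho and 2 to 10 with a library left out (2 without KO replicate 1 or 6, 10 without KO replicate 4). The cause was not tested. Left-out libraries moved the log2 fold change of Cd33 between 0.07 and 0.19 and that of Cd22 between 0.03 and 0.1. Trem1 and Siglecg rest on few reads, and Trem1, Treml2 and Siglece had the widest intervals.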
